A study of Mus musculus with 2 samples.

Results

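Potassium channel genes were taken as all entries whose symbol starts with Kcn in both deposited expression tables, apart from Kcnj10 and Kcnj8, which were left out by the rule. No remaining name held Rik or -ps. This gave 95 of 23950 symbols, each represented by its entry with the highest summed FPKM (fragments scaled by transcript length and by library total, as deposited). The set was chosen by name and not by any measured value. Kcnmb4os1, Kcnd3os and Kcnq1ot1 in it are transcripts from the other strand of a channel gene, and Kcnrg encodes a regulator of channel assembly. RNA-seq was done on whole optic nerve of mice of mixed strain at postnatal day 12. The control library came from Hdac3f/+; Olig1-cre animals and the Hdac3 cKO library from Hdac3f/f; Olig1-cre animals, with 1 library per group. Both groups therefore carry the Olig1-cre driver, which acts in cells of the Olig1-expressing lineage, and the controls carry 1 floxed Hdac3 allele. The sources used here do not give the number of animals per library. No group has a replicate, so all differences describe these libraries and were given no test.

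Potassium channels let potassium leave or enter cells and so set the resting potential and the shape of the action potential. Voltage-gated alpha subunits form pores that open on depolarisation, and auxiliary subunits alter their gating and transport. Inward rectifiers and K2P (tandem-pore) channels carry the resting conductance of glia, and calcium- or sodium-activated channels couple potassium flux to the entry of those ions. In a myelinated nerve, Kv1 channels sit in the axon membrane under the myelin next to the node. Astrocytes and oligodendrocytes take up the potassium that firing axons release. An optic nerve holds the axons of retinal ganglion cells but not their cell bodies, so most neuronal transcripts stay in the retina.

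The summed FPKM was 441867 in the control library and 557861 in the cKO library, and read depth is unknown. Hdac3 itself was at 36.4 FPKM in control and 38.0 FPKM in cKO (log2 difference 0.06). A floxed gene can lose exons without losing all of its reads, so this value does not check the labels, and the groups below are the libraries labelled control and cKO. Of 10 oligodendrocyte markers all 10 were lower in the cKO library (median log2 difference -2.68), while 9 of 10 astrocyte markers and all 8 meningeal fibroblast markers had differences above 0. Of all 14154 genes with at least 1 FPKM in either library, 8690 had differences above 0. Of 10 retina markers, 9 were under 1 FPKM in both libraries.

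Potassium channel genes were expressed at low levels as a set. Of the 95, 58 stayed under 1 FPKM in both libraries and 4 of these were listed at 0 in both. The other 37 (38.9% of the set, against 59.1% of all symbols) reached 1 FPKM in at least 1 library and were compared. Just inside this limit were Kcns3, at 0.353 FPKM in control and 1.03 FPKM in cKO, and Kcnip4, at 0.618 and 1.13 FPKM. Just outside it were Kcns1, at 0.621 and 0.967 FPKM, and Kcnh2, at 0.874 and 0.792 FPKM. The median of the 37 was 2.87 FPKM in control and 2.85 FPKM in cKO, against 8.44 and 9.34 FPKM over the 14154 genes of all kinds that passed the same limit. Only 6 members reached 10 FPKM in either library, namely Kcna6, Kcna1, Kcnip3, Kcne1l, Kcnk2 and Kcnj13. The whole set summed to 208 FPKM in control and 231 FPKM in cKO, and the 6 highest members of each library made up 43.7% and 47.2% of that sum.

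**Figure D1:**
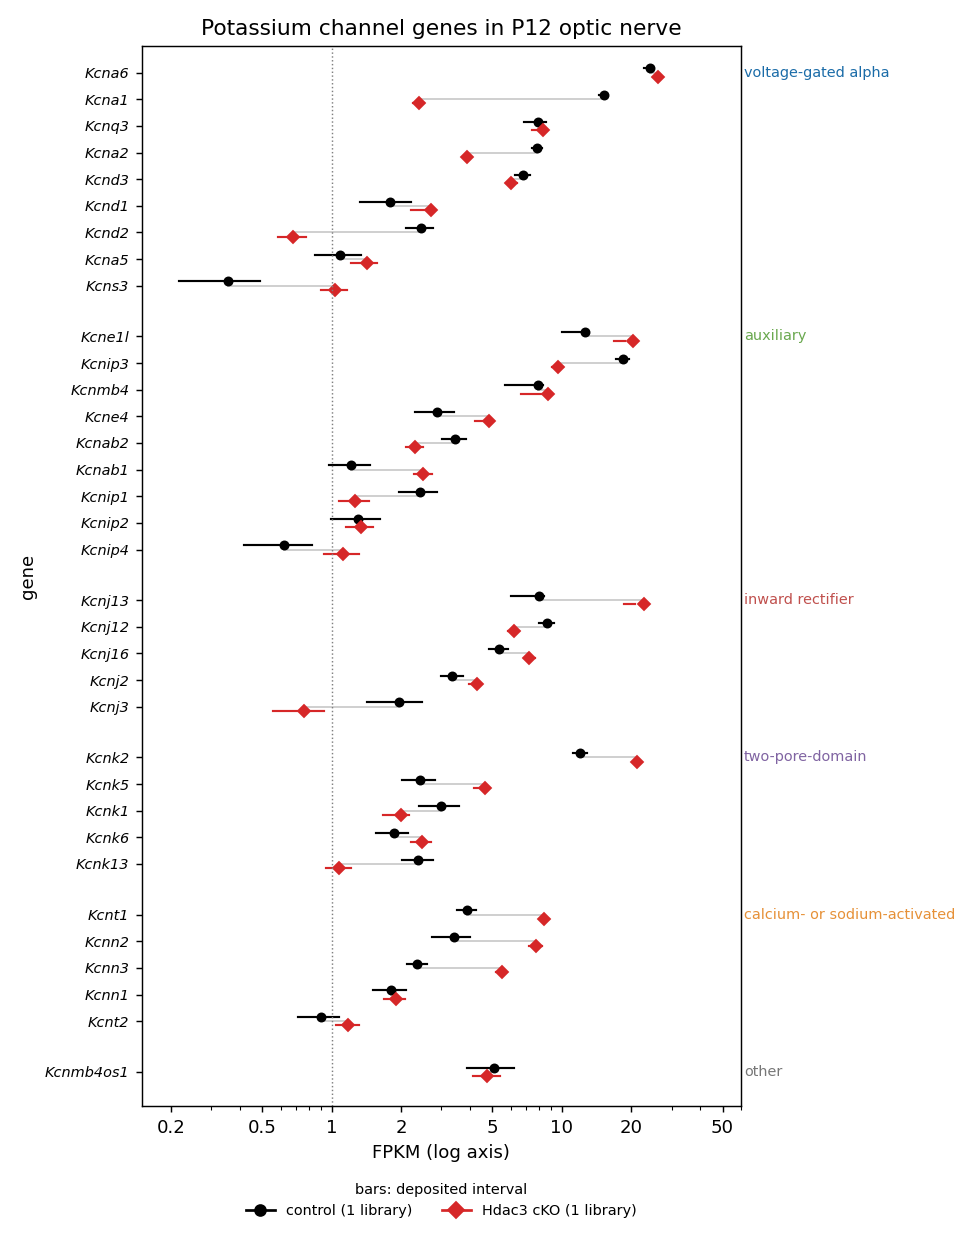
FPKM (log axis) of 34 of the 37 potassium channel genes that reached 1 FPKM (dotted line) in at least 1 library, by channel class. Black points are the control library, red diamonds the cKO library, and bars the deposited intervals; Kcna1 was at 15.2 and 2.40 FPKM and Kcnj13 at 7.94 and 22.8 FPKM, while Kcna6, the highest member, was at 24.3 and 26.3 FPKM.

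Differences are given as log2 of the ratio cKO to control, after 1 was added to each FPKM as a pseudocount, a scale that understates the change of low genes. A gene was counted as lower or higher if it differed by 2-fold or more on this scale and its interval in one library lay wholly apart from that in the other. Separate intervals alone were common, in 26 of the 37 members (70.3%) and 60.9% of all genes compared. By the full rule 2 of the 37 members were lower in the cKO library, Kcna1 and Kcnd2, beside 4.51% of all genes compared. Only 1 member was higher, Kcnj13, beside 4.73% of all genes. These shares (5.41% and 2.70%) were near the background. The median log2 difference of the members was 0.20 (middle 50% from -0.42 to 0.59) and that of all genes 0.12 (middle 50% from -0.17 to 0.43). Of the members, 24 had a difference above 0 and 13 below 0, beside 8690 above 0 and 5464 below 0 over all genes compared. At a 1.5-fold threshold 7 members were lower (18.9%, beside 8.85% of all genes) and 10 were higher (27.0%, beside 16.0% of all genes). The 7 were Kcna1, Kcna2, Kcnd2, Kcnip1, Kcnip3, Kcnj3 and Kcnk13. The 10 were Kcnab1, Kcne1l, Kcne4, Kcnj13, Kcnk2, Kcnk5, Kcnn2, Kcnn3, Kcns3 and Kcnt1.

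**Figure D2:**
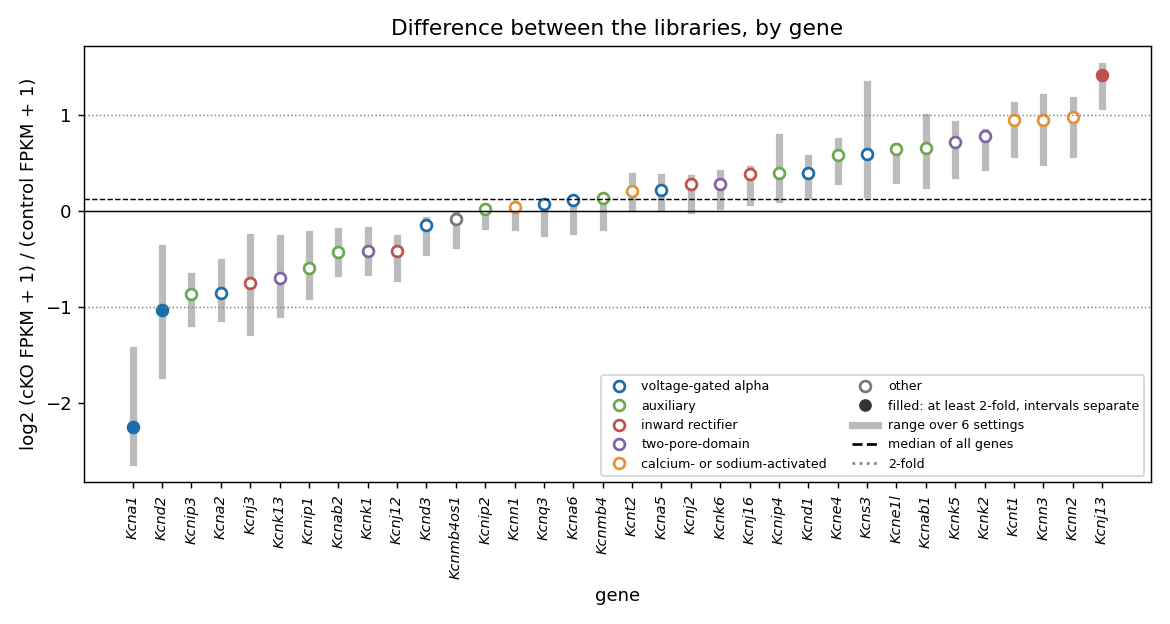
Log2 difference (cKO over control, pseudocount of 1) of 34 of the 37 genes in order of size, with the range over 6 settings of pseudocount and scaling as grey bars. Filled points are the 3 genes at least 2-fold apart with separate intervals, dotted lines mark 2-fold and the dashed line the median of all genes (0.12); the points run from -2.25 (Kcna1) to 1.41 (Kcnj13).

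Among the Kv1 alpha subunits, which form low-threshold delayed rectifiers, 4 of 8 were compared and they did not move together. Kcna1, which encodes Kv1.1 (chromosome 6, 126586480 to 126595819, mm9, as listed), was at 15.2 FPKM (interval 14.5 to 15.7) in the control library and at 2.40 FPKM (interval 2.25 to 2.52) in the cKO library. The control value was 6.34 times the cKO value, and the log2 difference was -2.25, the most negative of the set, with -2.36 to -2.13 from the interval bounds. Kcna2, for Kv1.2, the usual partner of Kv1.1 beside the node, was at 7.84 FPKM in control and 3.89 FPKM in cKO (log2 -0.85). Its intervals were separate but it fell short of the rule, although without a pseudocount its control value was 2.02 times its cKO value. Kcna6, for Kv1.6, was the most abundant member in both libraries, at 24.3 FPKM in control and 26.3 FPKM in cKO (log2 0.11). These values lay above 78.7% and 79.1% of all genes compared. The sign of the Kcna6 difference changed with the scaling, to -0.21 after scaling to the same FPKM sum. Kcna5 was at 1.09 and 1.43 FPKM (log2 0.21), with overlapping intervals. The ratio of FPKM between members within 1 library is free of the scaling between libraries. Kcna1 stood at 0.626 times Kcna6 in control (0.582 to 0.690 from the interval bounds) and at 0.0913 times in cKO (0.0861 to 0.101). It stood at 1.94 times Kcna2 in control and at 0.617 times in cKO. These pairs were picked after their values were seen.

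Kcna5, Kcna1 and Kcna6 lie next to each other on chromosome 6, with gaps of 101 kb and 62.5 kb between their listed loci. The middle gene of the 3 was the one at least 2-fold lower, and the genes on both sides differed by less than 1.5-fold. A second Kv1 cluster on chromosome 3 holds Kcna3, Kcna2 and Kcna10. Kcna3, for Kv1.3, was at 0.801 FPKM in control and 0.282 FPKM in cKO, with separate intervals, and did not reach 1 FPKM. Kcna10 was under 0.1 FPKM in both libraries.

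The Kv beta subunits bind Kv1 pores from the inside of the cell and differed in direction. Kcnab2, whose product is found with Kv1 channels beside the node, was at 3.43 FPKM in control and 2.30 FPKM in cKO (log2 -0.43). Kcnab1, for a beta subunit that speeds inactivation, was at 1.22 and 2.50 FPKM (log2 0.66). The intervals were separate for both genes, and neither was 2-fold apart with the pseudocount of 1. Without a pseudocount, the Kcnab1 cKO value was 2.06 times the control value. A list of 14 genes held proteins of the juxtaparanode, where Kv1 channels sit, and of the node. Of these, 13 were compared, and 5 were lower by the rule and 0 higher (median -0.68), beside 4.51% and 4.73% of all genes compared. In this list 11 differences were below 0 and 2 above 0, the highest 0.75. Cntnap2 and Cntn2, whose products anchor Kv1 channels, were not among the 5. They were at 2.10 and 0.987 FPKM (log2 -0.64) and at 1.40 and 0.501 FPKM (log2 -0.68). Without a pseudocount, their control values were 2.12 and 2.79 times their cKO values, with separate intervals. Each was counted as lower in 1 of the 6 settings of pseudocount and scaling. The 5 lower ones were Nfasc, a cell adhesion protein of the node and paranode, at 420 FPKM in control and 73.2 FPKM in cKO, Lgi3 (121 and 27.7 FPKM), Ank3 (33.7 and 6.85 FPKM), Adam23 (5.85 and 1.65 FPKM) and Scn8a, a nodal sodium channel (4.57 and 1.18 FPKM). Several of these genes are also expressed by oligodendrocytes.

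Kv4 channels carry the A-type current, a fast inactivating current. Kcnd2, for Kv4.2 (chromosome 6, 21166108 to 21679805, mm9), was at 2.44 FPKM in control (interval 2.11 to 2.76) and 0.680 FPKM in cKO (interval 0.584 to 0.777). The control value was 3.60 times the cKO value and the log2 difference was -1.04, just past 2-fold. It was -0.39 with a pseudocount of 5, where Kcnd2 was no longer counted, and -1.71 with a pseudocount of 0.1. Kcnd3, for Kv4.3, was the most abundant of the 3 Kv4 genes at 6.78 FPKM in control and 6.04 FPKM in cKO (log2 -0.14). Kcnd1 was at 1.80 and 2.69 FPKM (log2 0.40), and the intervals of both Kcnd1 and Kcnd3 overlapped. Kcnd2 stood at 0.361 times Kcnd3 in control and at 0.113 times in cKO.

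KChIP subunits are calcium-binding proteins that attach to Kv4 pores, and all 4 of their genes were compared. Kcnip3, whose product has also been described as a transcriptional repressor (DREAM), was at 18.4 FPKM in control and 9.62 FPKM in cKO (log2 -0.87, with separate intervals). Kcnip1 was at 2.42 and 1.26 FPKM (log2 -0.59, with separate intervals). Kcnip2 was at 1.30 and 1.34 FPKM (log2 0.02), and Kcnip4 at 0.618 and 1.13 FPKM (log2 0.39). None of the 4 met the rule, although Kcnip3 and Kcna2 met it after scaling to the same FPKM sum. That scaling moved the median of all genes to -0.16, and the share of all genes counted lower under it was not computed. The transmembrane partners of Kv4 channels, outside the Kcn set, were both lower by the rule. Dpp6 was at 4.15 FPKM in control and 1.46 FPKM in cKO (log2 -1.07), and Dpp10 at 2.04 and 0.326 FPKM (log2 -1.20).

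**Figure D3:**
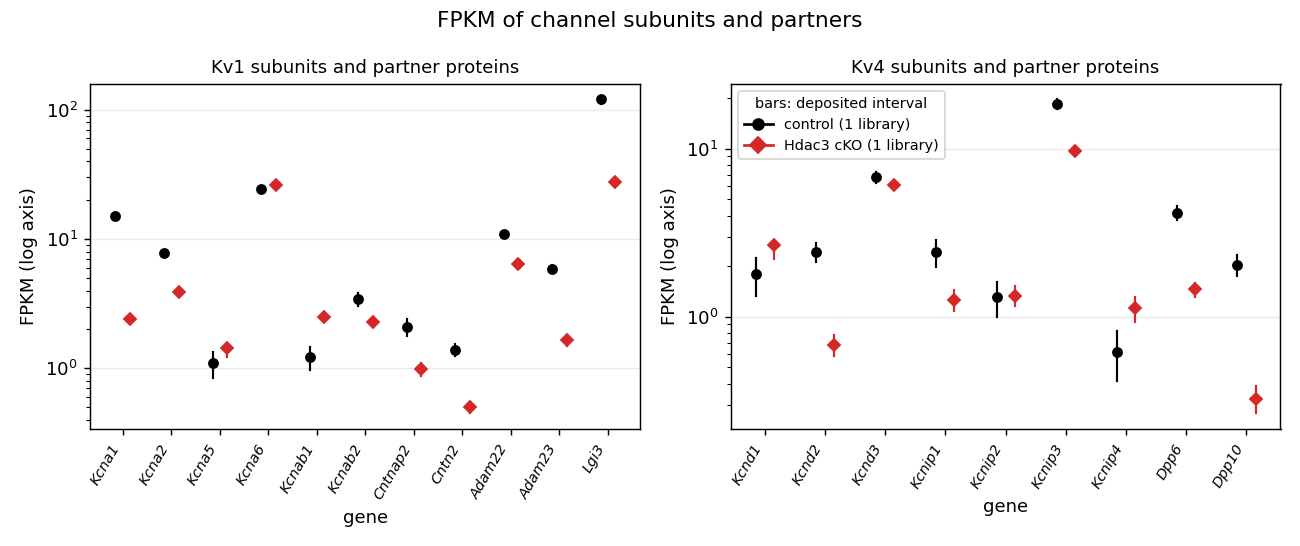
FPKM (log axes) of Kv1 subunits with partner proteins of the juxtaparanode (left) and of Kv4 subunits with KChIP and DPP partners (right). Points are single libraries and bars deposited intervals; Kcna1 (15.2 and 2.40 FPKM) and Kcnd2 (2.44 and 0.680 FPKM) separated widely, while Kcna6 (24.3 and 26.3 FPKM) and Kcnd3 (6.78 and 6.04 FPKM) lay close together.

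Of the other voltage-gated alpha genes 5 were compared and 0 met the rule, and 2 of them are described here. Kcnq3, for a subunit of the M-current, which damps repeated firing, was at 7.91 FPKM in control and 8.33 FPKM in cKO, and its sign changed with the scaling (log2 0.07, and -0.23 after scaling to the same FPKM sum). Kcns3, for a silent subunit that modifies Kv2 channels, stayed near 1 FPKM or below. The 8 genes of the EAG, ERG and ELK group all stayed under 1 FPKM, with Kcnh2 highest at 0.874 FPKM.

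Inward rectifiers were compared for 5 of 13 members. Kcnj13, which encodes Kir7.1, a channel best known from pigment epithelium and choroid plexus (chromosome 1, 89282858 to 89291304, mm9), was at 7.94 FPKM in control (interval 6.04 to 8.35) and at 22.8 FPKM in cKO, above its own interval of 18.7 to 20.8. The cKO value was 2.87 times the control value and the log2 difference was 1.41, with 1.08 to 1.63 from the interval bounds. It met the rule under each of the 6 settings of pseudocount and scaling (1.09 to 1.51). The listed locus of Kcnj13 lies inside that of Gigyf2, which was at 11.3 and 12.4 FPKM. The sources used here do not say whether reads were counted by strand, so reads from both genes may not be separable. Of 8 markers of pigment and choroid epithelium, 6 were under 1 FPKM in both libraries, and the list summed to 4.17 FPKM in control and 4.95 FPKM in cKO. The highest of the list were Tyr (2.20 and 2.54 FPKM) and Pmel (0.959 and 1.26 FPKM), both with overlapping intervals. Rpe65, a defining marker of retinal pigment epithelium, was under 0.1 FPKM in both libraries. Ttr, which defines choroid plexus epithelium, was at 0.107 and 0.574 FPKM, with separate intervals. Over the same libraries the 8 meningeal fibroblast markers summed to 1670 and 3896 FPKM. Of these, 7 were higher by the rule, beside 4.73% of all genes compared. The part of these markers in the Kcnj13 difference was not tested.

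The other inward rectifiers differed by less than 2-fold on the log2 scale. Kcnj16, for Kir5.1, which pairs with the astrocyte and oligodendrocyte channel Kir4.1, was at 5.33 FPKM in control and 7.23 FPKM in cKO (log2 0.38). Its neighbour Kcnj2, 38.2 kb away on chromosome 11, encodes the strong rectifier Kir2.1 and was at 3.35 and 4.26 FPKM (log2 0.28). Kcnj12, for Kir2.2, was at 8.59 and 6.19 FPKM (log2 -0.42). The intervals of these 3 genes were separate. Kcnj3, for a rectifier opened by G proteins, was at 1.96 and 0.760 FPKM (log2 -0.75), and was counted as lower with a pseudocount of 0.1.

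Promoter sequence from RefSeq (build GRCm38.p6, not the mm9 build of the expression tables) was held for 69 of the 95 symbols. It is shown for the counted members with an entry, Kcnd2 (lower) and Kcnj13 (higher), as the 250 bases before the annotated start, 5′ to 3′ on the gene's strand. The Kcnd2 stretch is chr6:21215096-21215345 (plus strand) and the Kcnj13 stretch is chr1:87394730-87394979 (minus strand), and no base of either lies in a GENCODE exon. Capitals mark matches to any of 4 motifs on either strand, namely ACAAAG (the SOX core), CAGCTG (an E-box), TATAAA (the TATA box) and TGACGTCA (the CRE).
Kcnd2: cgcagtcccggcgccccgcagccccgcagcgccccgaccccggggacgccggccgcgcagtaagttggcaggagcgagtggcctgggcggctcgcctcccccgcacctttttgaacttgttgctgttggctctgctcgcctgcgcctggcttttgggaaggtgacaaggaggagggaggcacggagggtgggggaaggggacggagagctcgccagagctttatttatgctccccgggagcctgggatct
Kcnj13: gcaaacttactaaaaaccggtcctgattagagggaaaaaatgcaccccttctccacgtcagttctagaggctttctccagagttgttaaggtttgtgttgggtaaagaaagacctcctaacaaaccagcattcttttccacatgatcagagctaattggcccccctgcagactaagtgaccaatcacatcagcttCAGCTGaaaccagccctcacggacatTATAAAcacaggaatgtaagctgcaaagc
The Kcnj13 stretch held an E-box at 55 to 50 bases before the start and a TATA box at 29 to 24 bases before it, and the 2 matches do not overlap. The Kcnd2 stretch held none of these letters. Over 32851 promoter entries of the same length, 13.0% held the E-box, 12.4% the TATA box, 16.5% the SOX core and 1.55% the CRE. The Kcnd2 stretch was 68.8% G or C with 22 CpG sites and the Kcnj13 stretch 45.2% with 3, beside medians of 52.4% and 6 over all entries.

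K2P channels pass potassium at rest, and 5 of 14 members were compared. Kcnk2, for TREK-1, a channel opened by stretch and lipids that is found in astrocytes and at nodes, was at 12.0 FPKM in control (interval 11.2 to 12.9) and 21.3 FPKM in cKO (interval 20.6 to 22.2). The log2 difference was 0.78, short of 2-fold, and lay between 0.46 and 0.82 over the 6 settings. Kcnk5, for the alkaline-activated TASK-2, was at 2.42 and 4.62 FPKM (log2 0.72), and Kcnk6 at 1.86 and 2.47 FPKM (log2 0.28). Kcnk1, for TWIK-1, also an astrocyte channel, was at 3.002 and 1.99 FPKM (log2 -0.42). Kcnk13, for THIK-1, a channel of microglia, was at 2.38 and 1.08 FPKM (log2 -0.70). Intervals were separate for all 5. Kcnk2 stood at 4.0 times Kcnk1 in control and at 10.7 times in cKO, a pair picked after its values were seen.

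Calcium- and sodium-activated channels were compared for 5 of 8 members, and all 5 differences were above 0 (median log2 0.95). Over all genes compared, 8690 of 14154 differences were above 0. None reached 2-fold with the pseudocount of 1, so 0 were counted. Kcnn2, for SK2, was at 3.40 FPKM in control and 7.69 FPKM in cKO, with separate intervals, 2.26 times as high (log2 0.98). Kcnn3, for SK3, was at 2.36 (2.13 to 2.60) and 5.49 FPKM (5.20 to 5.66), 2.33 times as high (log2 0.95). Kcnt1, for the sodium-activated channel Slack, was at 3.86 (3.50 to 4.23) and 8.39 FPKM (8.02 to 8.79), 2.17 times as high (log2 0.95). All 3 were counted as higher with a pseudocount of 0.1, a setting under which 5 members were higher, beside 8.17% of all genes, and 4 were lower, beside 5.81%. Kcnn1, for SK1, was at 1.82 and 1.90 FPKM (log2 0.04) and Kcnt2 at 0.897 and 1.18 FPKM (log2 0.20), both with overlapping intervals. The ratio of Kcnn2 to Kcnn3 was 1.44 in control and 1.40 in cKO. Kcnma1, the pore of the BK channel, stayed at 0.765 and 0.559 FPKM.

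Of the remaining auxiliary subunits, Kcne1l, a small MinK-related subunit gene on chromosome X, was at 12.7 FPKM in control and 20.3 FPKM in cKO (log2 0.64), and its cKO value lay above its own interval of 16.8 to 18.8. Kcne4, whose product restrains Kv1 channels, was at 2.87 and 4.81 FPKM (log2 0.59). Kcnmb4, the BK beta subunit of neurons, was at 7.91 and 8.75 FPKM (log2 0.13, and -0.17 after scaling to the same FPKM sum). Kcnmb4os1 overlaps it over 3115 bases and was at 5.08 and 4.75 FPKM, so reads of the pair may not be separable.

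Channels were also grouped by the cell in which textbook knowledge places them, which is a label and not a measurement here. Of 8 axonal channel genes, 4 were compared, with differences of -2.25 (Kcna1), -0.85 (Kcna2), -0.43 (Kcnab2) and 0.07 (Kcnq3). Their median was -0.64. It depends on the assignment, which was made with earlier results of these data known. The 5 compared genes assigned to several sources all had differences above 0, among them Kcnk2 (0.78), which is also found at nodes. The 21 compared genes with no source had 13 differences above 0 and 8 below 0, among them Kcnab1 (0.66). The 12 neuron and axon markers had a median of 0.31. Of these, 2 were higher by the rule and 0 lower, beside 4.73% and 4.51% of all genes compared. The 2 were Nefl (11.6 and 29.5 FPKM) and Nefh (4.89 and 13.8 FPKM), the light and heavy neurofilament chains. Gap43 (49.9 and 25.8 FPKM, log2 -0.92), Tubb3 (12.7 and 6.24 FPKM, log2 -0.92) and Map2 (29.0 and 15.1 FPKM, log2 -0.90) were just short of 2-fold lower with the pseudocount of 1. They were counted as lower in 2 or 3 of the 6 settings. Without a pseudocount, the Tubb3 control value was 2.04 times its cKO value. The 12 markers summed to 152 FPKM in control and 158 FPKM in cKO, while the 10 oligodendrocyte markers summed to 27607 and 3667 FPKM. The part of either cell type in the Kcna1 difference was not tested. In bulk nerve, fewer cells of a type and less RNA per cell cannot be told apart. The astrocyte channel genes Kcnj16 and Kcnk1 differed in direction, beside a median of 0.58 for 10 astrocyte markers. The microglial genes Kcnk13 and Kcnk6 did so too, beside 0.51 for 10 microglia markers. Of the genes assigned to the oligodendrocyte lineage, only Kcna6 was compared (24.3 and 26.3 FPKM, log2 0.11), beside a median of -2.68 for the 10 oligodendrocyte markers and -0.67 for 8 precursor markers. The other, Kcnh8, was at 0.353 and 0.0294 FPKM, too low to compare. The 8 precursor markers were split, with a middle 50% from -1.23 to 0.03. Of these, 3 were lower by the rule, beside 4.51% of all genes compared, and 2 had differences above 0. Kcne4, assigned to vessels, was at 0.59, beside 0.90 for 9 mural and 0.38 for 8 endothelial markers.

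**Figure D4:**
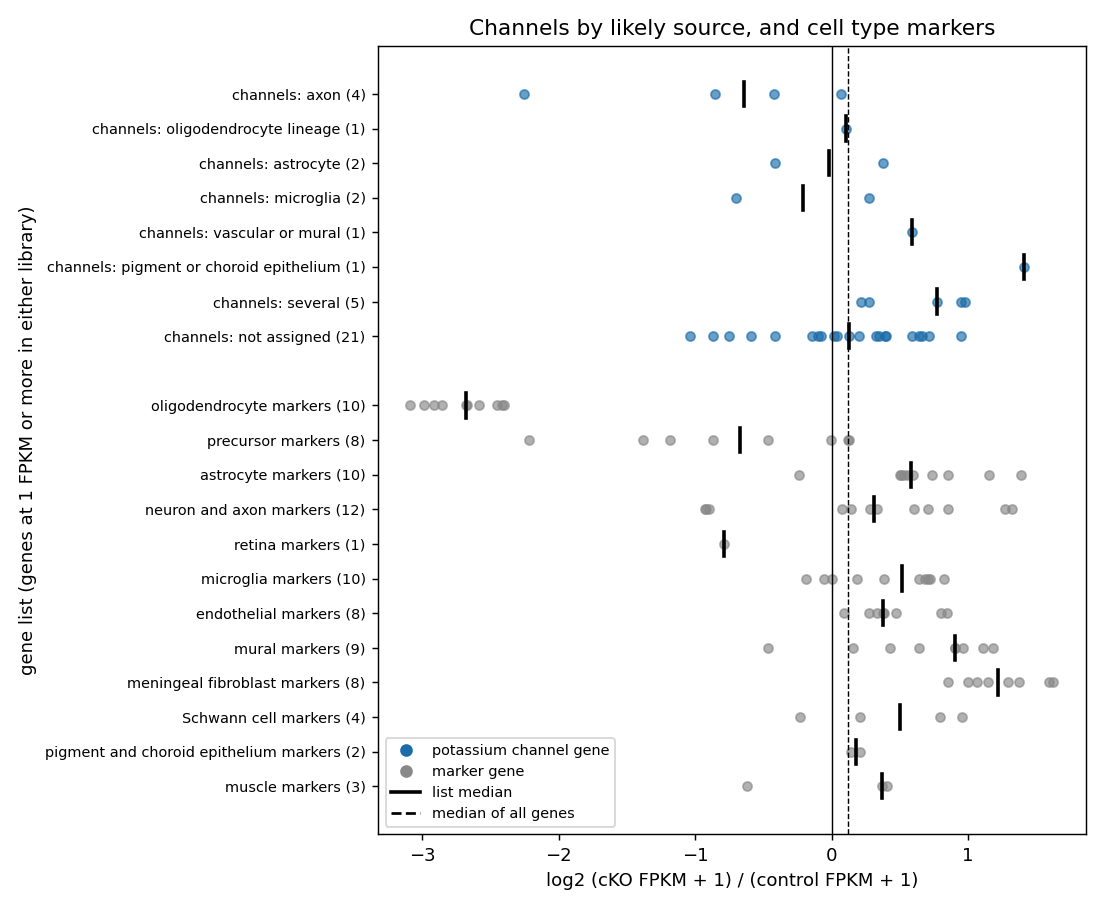
Log2 difference (cKO over control, pseudocount of 1) of potassium channel genes by likely source (blue) and of cell type markers (grey), with list medians as bars, the median of all genes dashed and the number of genes in brackets. Channels assigned to axons run from -2.25 to 0.07, while neuron and axon markers have a median of 0.31 and oligodendrocyte markers a median of -2.68.

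Other genes of potassium transport were compared as lists. Of 10 sodium pump and FXYD genes, 4 were higher and 0 lower (median 0.70), beside 4.73% and 4.51% of all genes compared. Among the 4 was Fxyd1, a pump regulator, at 372 FPKM in control and 1197 FPKM in cKO. Slc12a2, which brings potassium and chloride into cells with sodium, was lower, at 65.3 and 21.5 FPKM (log2 -1.56), and Slc12a7, a potassium-chloride exporter, was higher, at 7.68 and 18.2 FPKM (log2 1.15). Hcn2, a cation channel opened by hyperpolarisation, was lower, at 8.72 and 2.81 FPKM (log2 -1.35). The inward rectifiers left out of the set, Kcnj10 (112 and 140 FPKM, log2 0.32) and Kcnj8 (7.36 and 13.5 FPKM, log2 0.80), did not meet the rule. In the control library Kcnj10 was thus above every member of the set.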

How the data were processed

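The authors deposited FPKM per gene for each library, with the bounds of an interval and a status, per the file headers. Cufflinks, TopHat and CASAVA are the tools, and mm9 the build, in the submitters' processing notes. The sources used here give no versions, annotation, strand setting or read numbers. Per the labels' protocols, Trizol RNA of frozen nerves went into Illumina TruSeq RNA libraries.

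Both tables hold 24460 entries, matched by symbol, start site group and locus. The 95 members have status OK in both libraries, and 1 (Kcnh8) has several entries. Genes with status OK in both libraries and at least 1 FPKM in either were compared on the deposited scale. With 1 library per group no p-value was computed. Members with at least 2 FPKM in either library, or counted, were named with values. Other members are named where a class, cluster or limit is described, some of them after their values were seen. Of each list, the counted genes and the 2 with the highest summed FPKM could be named, and Rpe65, Ttr, Gigyf2, Tubb3, Map2, Cntnap2 and Cntn2 were named after their values were seen. Members were taken by symbol alone, but this rule, the channel classes, the sources and the lists were chosen with earlier results of these data known. Alternatives covered pseudocounts of 0.1 and 5, 3 scalings, other minimum FPKM values, a 1.5-fold threshold, size alone and summed entries. Python 3.11.15, pandas 2.3.3, numpy 2.4.6 and matplotlib 3.10.9 were used. Loci are printed as listed. Some genes that the rule would name are not reported here, although counts and medians include them.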

Additional observations from a re-analysis of the deposited data

How the results depend on the processing

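No group has a replicate, so neither left-out replicates nor a block could be run, and variation between animals is unknown. No paired analysis was possible with 1 library per group. Among 37 members compared, 4 had a cKO value outside its own interval and 0 a control value. Values outside their own interval were common in the marker lists, on both sides. In the control library Mbp was at 15976 FPKM (interval 16236 to 16332) and C1qb at 69.8 FPKM (interval 54.1 to 61.3). Such values were not counted over all genes compared, so how far they bear on separate intervals is unknown. The count of members lower, 2 as reported, was 4 with a pseudocount of 0.1 (10.8%, beside 5.81% of all genes). At a 1.5-fold threshold it was 7 (18.9%, beside 8.85% of all genes). It was 1 with a pseudocount of 5, 4 after scaling to the same FPKM sum and 1 with a minimum of 5 FPKM. The share of all genes was not computed for these last settings, so their counts are not read as results about the members. The count higher, 1 as reported, was 5 with a pseudocount of 0.1 (13.5%, beside 8.17% of all genes). At a 1.5-fold threshold it was 10 (27.0%, beside 16.0% of all genes). It was 0 without the members outside their own interval (an alternative chosen after seeing the data), since Kcnj13 is then left out. Kcna1 was counted lower in each setting tried. The median log2 difference, 0.20 as reported, was 0.34 and 0.0911 with pseudocounts of 0.1 and 5. Scaled to a common upper quartile it was 0.16, centred on the median of all genes 0.0821 and scaled to a common FPKM sum 0.0110. It was 0.0202 with no minimum FPKM, 0.12 with a minimum of 5 FPKM and 0.21 without non-channel transcripts (also chosen after seeing the data). Over all genes, the median of 0.12 became 0.05 with the upper quartile and -0.16 with the sum. Of 30 members with at least 2 FPKM in either library, 3 (Kcna6, Kcnq3 and Kcnmb4) changed sign with the scaling. The remaining settings left both counts at their reported values.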

Other observations

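Among the 58 members under 1 FPKM in both libraries, 12 (20.7%) had deposited intervals that did not overlap, beside 979 of 9596 genes of all kinds under that limit (10.2%), although a pseudocount of 1 keeps their log2 differences small. Genes at 0 in both libraries were not left out of either share. They were 4 of the 58 members, and their number among the 9596 was not counted, so the shares may not be comparable. Kcnh8 was at 0.353 FPKM in control (interval 0.202 to 0.488) and 0.0294 FPKM in cKO (0.00532 to 0.0532), a ratio of 12.0, and its second entry had similar values, 0.299 and 0.0295 FPKM. The control value was 2.84 times the cKO value for Kcna3, 2.71 times for Kcnq5, for an M-current subunit, 2.68 times for Kcnk10, for the K2P channel TREK-2, 3.35 times for Kcnu1, for a pH-sensitive channel of sperm, and 1.94 times for Kcnc1, for the fast Kv3.1. In the other direction, the cKO value was 5.01 times the control value for Kcng4 and 2.67 times for Kcng1, both silent modifiers of Kv2 channels, and 3.79 times for Kcnmb2, a BK beta subunit. The compared silent subunit Kcns3 stood at 2.93 times its control value. Kcng4 was at 0.131 and 0.654 FPKM, Kcng1 at 0.189 and 0.504 FPKM and Kcnmb2 at 0.0800 and 0.303 FPKM. These genes were singled out after their values were seen, and the number of fragments behind such low levels is unknown.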
